A study of Mus musculus with 12 samples.

Results

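The genes described here are the 10 subunits of AMPA and NMDA type glutamate receptors: Gria1, Gria2, Gria3 and Gria4 of the AMPA receptor, and Grin1, Grin2a, Grin2b, Grin2c, Grin2d and Grin3a of the NMDA receptor. They were chosen by name and matched to 10 of the 41388 gene identifiers in the count tables, and all 10 passed the filter on low counts. The tissue was cortex with hippocampus, taken from C57/Bl6 mice aged 21 days after birth. All animals carried Aldh1L1::RPL10a-eGFP, a fluorescent tag on a ribosomal protein whose expression the Aldh1l1 promoter restricts largely to astrocytes, and all samples were labelled as treated with cycloheximide (1 ug/mL), which holds ribosomes on their messages, and TTX (1 mM), a sodium channel blocker. Translating ribosome affinity purification (TRAP) pulls the tagged ribosomes, with their bound RNA, out of a lysate by antibody.

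The 12 libraries form 4 groups of 3. Cortex input is RNA before the purification and cortex TRAP is its immunoprecipitate. Synaptoneurosome input is RNA of a sucrose gradient layer that holds pinched-off synapses with the fine processes around them. PAP TRAP, for peripheral astrocyte process, is the immunoprecipitate of that layer. The labels give 1 extract protocol for all samples and do not say how the cortex samples differed in handling. They also do not say whether the 3 libraries of a group came from separate animals or pools, so p-values measure the spread between these libraries, which may be technical.

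AMPA and NMDA receptors are tetrameric cation channels opened by glutamate, and they carry most of the fast excitatory current at synapses of cortex and hippocampus. AMPA receptors are built from GluA1 to GluA4, the products of Gria1 to Gria4. NMDA receptors combine the obligatory subunit GluN1 (Grin1) with GluN2 subunits (Grin2a to Grin2d), which set kinetics and magnesium block, or with GluN3 subunits such as Grin3a. In young forebrain GluN2B is prominent and GluN2A rises with age. Both families are best known from neurons, where they sit in the postsynaptic membrane.

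At a marked site in the channel pore, the AMPA subunits shown carry a glutamine codon and the NMDA subunits shown an asparagine codon. The sequences around this site are given here, and identity between the 2 families was not computed. Each line is 45 bases of spliced coding sequence from the GENCODE M21 transcripts (GRCm38), 5′ to 3′ on the strand of the gene. The capitals mark the codon of the Q/R site in AMPA subunits and of the asparagine at the N site in NMDA subunits. Stretches are shown for 8 of the 10 subunits.
Gria1: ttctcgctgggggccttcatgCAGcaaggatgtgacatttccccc
Gria2: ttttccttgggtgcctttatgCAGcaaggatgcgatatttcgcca
Gria3: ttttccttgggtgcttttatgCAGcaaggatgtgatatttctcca
Gria4: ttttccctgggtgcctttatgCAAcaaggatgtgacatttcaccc
Grin1: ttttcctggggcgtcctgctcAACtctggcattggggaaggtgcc
Grin2a: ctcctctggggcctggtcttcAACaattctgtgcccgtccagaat
Grin2c: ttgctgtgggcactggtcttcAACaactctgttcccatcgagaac
Grin2d: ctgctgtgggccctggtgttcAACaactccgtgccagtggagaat

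Between pairs of AMPA subunits 36 to 42 of the 45 bases were identical, between pairs of the GluN2 subunits shown 35 to 36, and between Grin1 and these GluN2 subunits 17 to 18. The AMPA genes all carry a glutamine codon at the marked site in the genome. In Gria2 messages this codon is a known target of RNA editing by the enzyme Adarb1, which changes it to be read as arginine and makes the channel nearly impermeable to calcium. Counts per gene do not separate edited from unedited messages.

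In the GENCODE M21 annotation (GRCm38), Gria1 lies at chr11:57011387-57330244 on the plus strand and Gria3 at chrX:41400854-41678601 on the plus strand. Gria2 lies at chr3:80681450-80802835 and Gria4 at chr9:4417896-4796234, both on the minus strand. The NMDA genes are all on the minus strand: Grin1 at chr2:25291181-25319187, Grin2a at chr16:9567898-9995560, Grin2b at chr6:135713233-136173511, Grin2c at chr11:115249169-115267243, Grin2d at chr7:45831883-45878378 and Grin3a at chr4:49661611-49845744. The antisense gene Grin1os overlaps 13.5% of the exonic bases of Grin1. It held 0 to 3 counts in every library, and the strand setting of the counting is not given in the sources used here.

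Gene counts per library ranged from 4918113 to 17553980, and counts in nuclear genes from 1423296 to 7777763. Synaptoneurosome inputs had 1423296 to 2476076 nuclear counts, and every other library at least 4864787. Mitochondrial transcripts took 44.8% to 50.2% of gene counts in cortex input and 1.03% to 1.28% in cortex TRAP. They took 83.8% to 91.9% in synaptoneurosome input and 35.6% to 47.6% in PAP TRAP. Depth and mitochondrial share thus differed by group, and their part in the changes was not tested. The 12 astrocyte markers held 0.804% to 0.887% of nuclear counts in cortex input, 7.0% to 10.2% in cortex TRAP, 4.03% to 4.86% in synaptoneurosome input, and 4.84%, 9.47% and 6.31% in PAP TRAP replicates 1, 2 and 3. The 16 neuron markers held 1.75% to 1.96%, 0.196% to 0.306%, 1.12% to 1.5% and 0.402% to 0.584% in the same order of groups, so the label "astrocytes", given to all 12 samples, matched the markers of cortex TRAP and not those of the input. The 8 dendritic messages, such as Camk2a and Shank1, held 0.637% to 0.817%, 0.115% to 0.128%, 1.09% to 1.32% and 2.28% to 3.59%. In these bulk samples, fewer cells of a type and less RNA per cell cannot be told apart.

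Levels are given as CPM, counts scaled to a common library size, after TMM scaling (normalized CPM), and levels of different genes are compared per kilobase of exon. In cortex input, Grin2b had the highest level per kilobase at 63.4 ± 0.793 (SD, n = 3), followed by Gria3 at 24.3 ± 1.23 and Gria2 at 19.9 ± 1.30. Gria1, Grin1 and Gria4 came next at 14.8 ± 1.43, 10.9 ± 3.67 and 7.48 ± 0.869, and neighbours among these overlapped in range. Grin3a (1.96 ± 0.488), Grin2a (1.15 ± 0.224), Grin2d (0.446 ± 0.141) and Grin2c (0.121 ± 0.0902) were lowest, and did not overlap with their neighbours. In cortex TRAP Grin2c had the highest mean at 4.84 ± 0.427 per kilobase, its range overlapping that of Grin2b at 4.35 ± 0.742, and every pair of neighbours below them overlapped as well. In synaptoneurosome input Grin2b (136 ± 28.5), Gria3 (83.2 ± 9.61) and Gria2 (49.1 ± 7.68) led without overlap. In PAP TRAP Grin2b (85.6 ± 19.9) overlapped Grin1, which was second at 52.0 ± 17.6, and Grin1 overlapped Gria3 at 33.6 ± 8.57. The per-kilobase values use exon lengths of GENCODE M21 and not those of the annotation behind the counts, and the order depends on which length is used. Per kilobase of the longest coding transcript, a scale added after seeing the data, Grin2b again led in cortex input (65.5 ± 0.819) without overlap with Gria3 (46.2 ± 2.33). On that scale Gria3 (158 ± 18.2) came above Grin2b (141 ± 29.5) in synaptoneurosome input, with overlap, and Gria2 (73.6 ± 11.5) overlapped Grin1 (54.3 ± 19.2). Grin1 then had the highest mean in both purifications, at 118 ± 39.8 in PAP TRAP, where it overlapped Grin2b (88.4 ± 20.6), and at 6.17 ± 2.54 in cortex TRAP, where it overlapped Grin2c (4.98 ± 0.439).

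**Figure D1:**
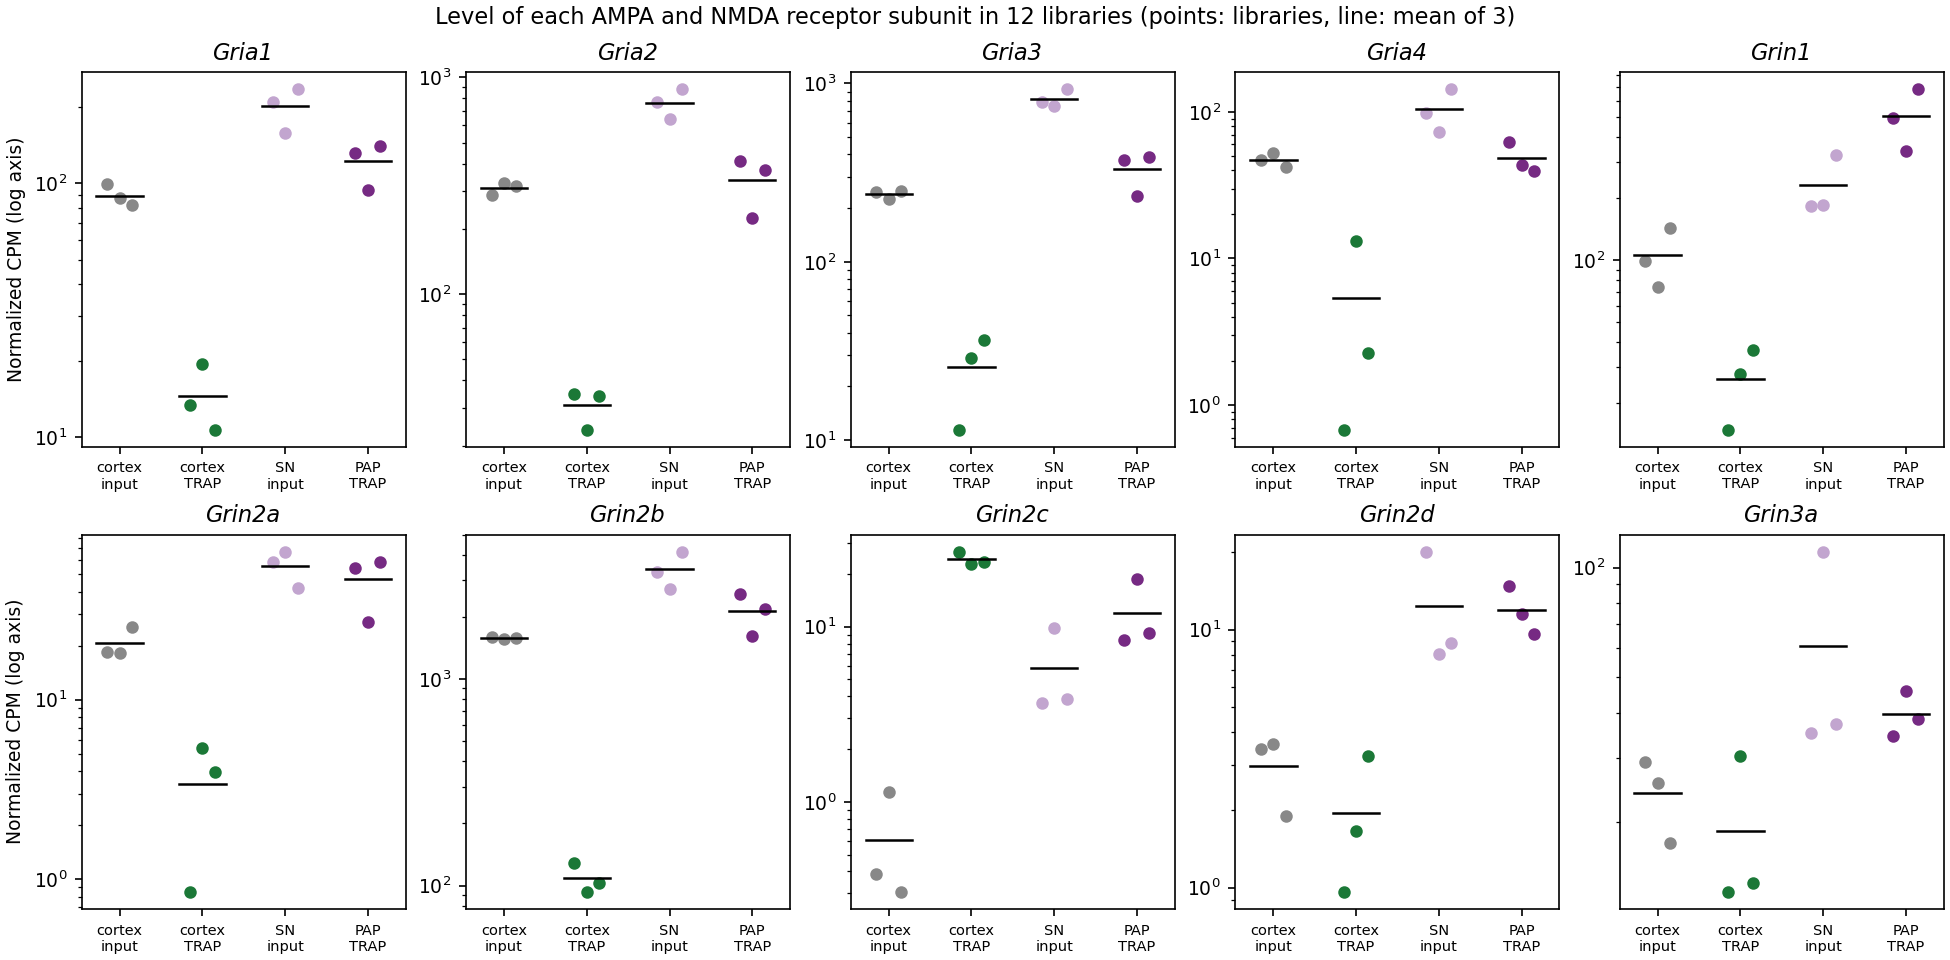
Normalized CPM (log axis) of the 10 receptor subunits in each of the 12 libraries, coloured by group, with a line at each group mean of 3 libraries (SN input is synaptoneurosome input). Grin2c is highest in the 3 cortex TRAP libraries, between 22.9 and 26.8 CPM, while Grin2b is lowest there, between 93.1 and 129 CPM.

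The first comparison asks which subunit messages were enriched on tagged ribosomes of whole cortex over the input. Grin2c rose and 7 subunits fell, among them all 4 AMPA subunits, Grin1, Grin2a and Grin2b. Grin2d and Grin3a were not called. Of all 13364 genes tested by the edgeR quasi-likelihood test, 35.4% were called (15.9% higher, 19.5% lower), and the median log2 change of the 10 subunits was -2.62 against 0.05 over all genes.

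Grin2c encodes GluN2C, a subunit known from cerebellar granule cells and also reported in astrocytes of the forebrain. Its normalized CPM was 0.39, 1.13 and 0.31 in cortex input, from 7, 17 and 5 counts, and 26.8, 22.9 and 23.4 in cortex TRAP, from 474, 276 and 392 counts. All 3 cortex TRAP libraries lay above all 3 input libraries. The log2 change was 5.32 ± 0.66 (SE), a 39.9-fold rise (edgeR adjusted p = 3.35e-06), and it ranged from 4.86 to 6.08 when 1 library was left out. With so few counts in the input, the fitted fold depends on the prior count. For comparison, the median log2 change of the 12 astrocyte markers, all of which rose, was 3.97.

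Grin2b, the GluN2 subunit with the highest level in the input, moved the other way. It had 1588, 1553 and 1586 normalized CPM in cortex input and 129, 93.1 and 103 in cortex TRAP, with no overlap. The log2 change was -3.86 ± 0.26 (edgeR adjusted p = 3.64e-09), a 14.6-fold lower level. Grin2a, the GluN2A gene, fell by 2.62 ± 0.49 on the log2 scale (edgeR adjusted p = 0.000321), and Grin1, the obligatory subunit, fell by 2.00 ± 0.36 (edgeR adjusted p = 0.000211), from 98.7, 73.6 and 144 to 14.9, 27.8 and 36.5 normalized CPM. Grin2d, with 31 to 62 counts in cortex input and 17 to 54 in cortex TRAP, changed by -0.60 ± 0.60 on the log2 scale (edgeR adjusted p = 0.470), and Grin3a by -0.35 ± 0.43 (edgeR adjusted p = 0.563). The 95% intervals of these changes, -1.86 to 0.66 and -1.25 to 0.55, leave room for a change in either direction.

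Among the AMPA subunits, Gria2, the subunit that limits calcium entry, had 287, 326 and 315 normalized CPM in cortex input and 34.7, 23.7 and 33.8 in cortex TRAP. All 3 TRAP libraries were far below all inputs, and the log2 change was -3.33 ± 0.28 (edgeR adjusted p = 3.07e-08). Gria1, the subunit most tied to activity-dependent insertion, fell by 2.62 ± 0.29, and Gria3 by 3.23 ± 0.34 (edgeR adjusted p = 8.23e-07 and 5.22e-07). Gria4, the subunit known from interneurons and early development, fell by 3.17 ± 0.64 (edgeR adjusted p = 0.000642). Its cortex TRAP libraries had 0.68, 13.1 and 2.27 normalized CPM, so replicate 2 stood apart, and without that library the change was -5.13.

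The 8 calls of this comparison held in all 15 alternative analyses, but their size depended on the processing. With length-corrected offsets every fall was smaller, with log2 changes of -2.32 for Grin2b, -2.21 for Gria2, -1.39 for Grin2a and -1.31 for Grin1. The rise of Grin2c was 5.49 with that correction. The 16 neuron markers fell alongside the subunits, 15 of 16 called lower with a median log2 change of -3.07. So did 8 of 8 dendritic messages, 6 of 6 oligodendrocyte, 3 of 4 oligodendrocyte precursor and 3 of 6 microglia markers, and none of these rose. Their part in the subunits' fall was not tested.

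**Figure D2:**
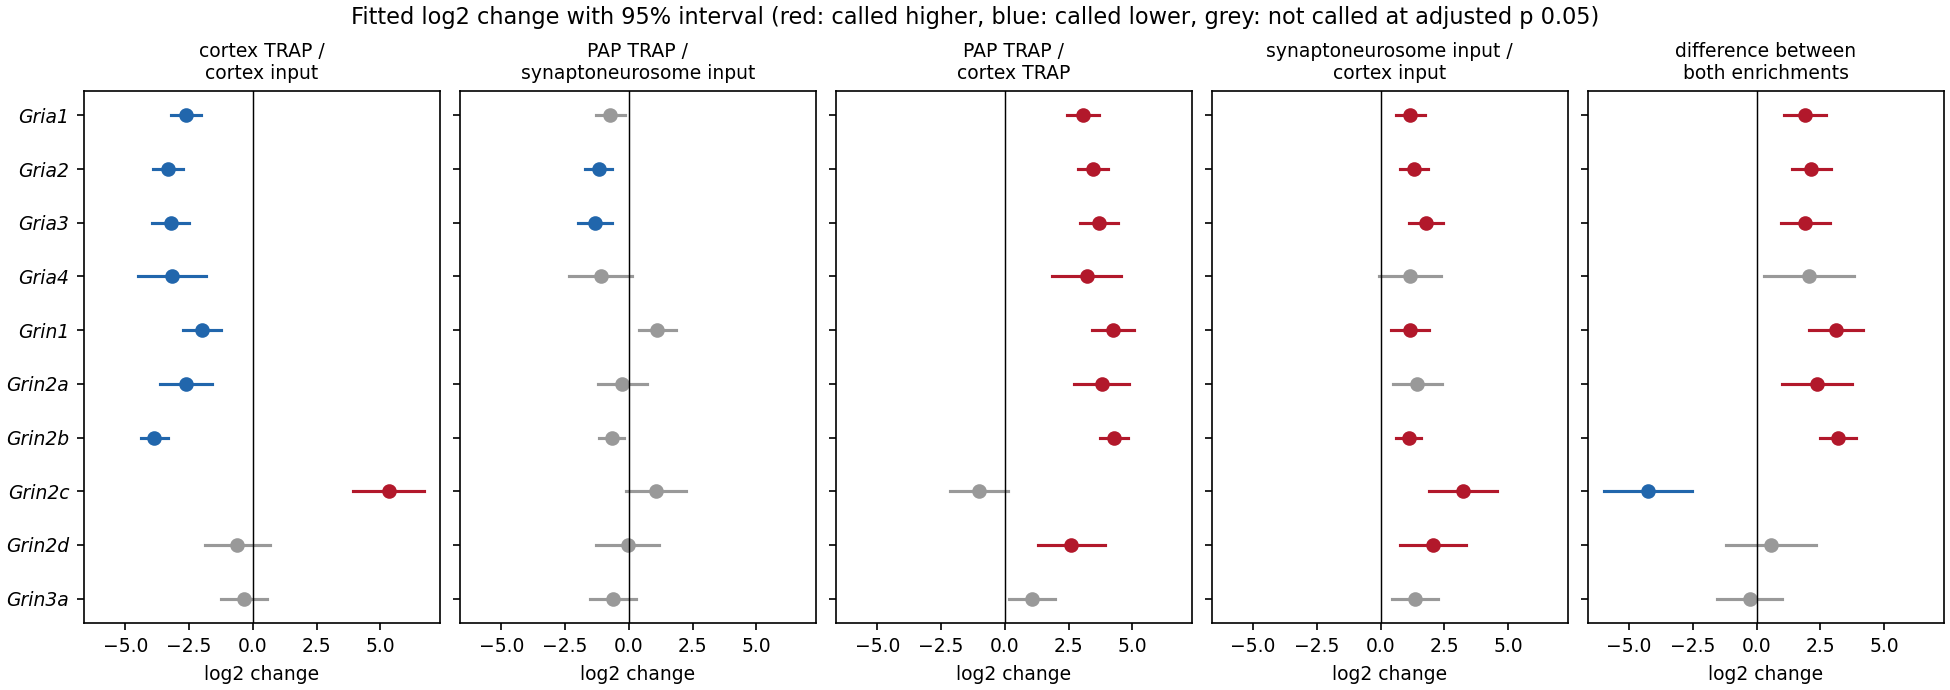
Log2 changes of the 10 subunits in the 4 group comparisons and in the difference between the enrichments over input, with 95% intervals from the edgeR fit (red called higher, blue called lower, grey not called). Grin2c lies opposite to the other called subunits in cortex TRAP against cortex input, at 5.32, and in the difference between enrichments, at -4.25.

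The second comparison asks which subunit messages the ribosome purification enriched in the synaptoneurosome layer. Gria2 and Gria3 fell in PAP TRAP against synaptoneurosome input, and the other 8 subunits were not called. In simulated counts for this comparison, changes were planted in genes drawn at random from all those tested. Of these, 2% of 2-fold and 36% of 4-fold changes were called. The rates were not measured at the counts of these subunits, and uncalled subunits may have changed. Of all genes, 4.53% were called (3.0% higher, 1.53% lower). The split of all calls was 401 higher to 204 lower, and 573 to 151 when mitochondrial genes were left out, a scaling that moved the median of all genes from 0.06 to 0.17 on the log2 scale here, from -0.28 to -0.11 in PAP TRAP against cortex TRAP, and from 0.03 to 0.14 in the difference between enrichments. The median log2 change of the subunits was -0.65.

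Gria2 had 768, 641 and 880 normalized CPM in synaptoneurosome input and 410, 224 and 373 in PAP TRAP. No PAP TRAP library reached the lowest input, and the log2 change was -1.18 ± 0.26 (edgeR adjusted p = 0.0122). Gria3 had 787, 747 and 927 against 373, 234 and 387, again without overlap, and a log2 change of -1.31 ± 0.32 (edgeR adjusted p = 0.0248). Neither call held with offsets corrected for GC content (Gria2 -0.73, edgeR adjusted p = 0.168, Gria3 -1.0, edgeR adjusted p = 0.114). These genes have a GC content of 36.8% and 39.8% in their longest transcripts, the lowest among the members. Without synaptoneurosome input replicate 3 the adjusted p of Gria2 was 0.0588 (edgeR). For Gria3 it was 0.0679, 0.0614 and 0.0899 when replicate 1, 2 or 3 of that input was dropped, and 0.102 when PAP TRAP replicate 2 was (edgeR).

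Grin1 had a higher level in every PAP TRAP library, with 491, 341 and 681 normalized CPM, than in any synaptoneurosome input, with 184, 187 and 327. The log2 change was 1.12 ± 0.35 (edgeR adjusted p = 0.0740), short of the threshold. The adjusted p fell below 0.05 in 5 of 15 alternatives, including DESeq2 at 0.0489 (edgeR 0.0319 with the compared groups alone), and with GC-corrected offsets the change was 0.66 ± 0.34 (edgeR adjusted p = 0.312). Grin1 has a GC content of 59.4%. Grin2b had 3306, 2727 and 4137 normalized CPM in the input and 2590, 1606 and 2182.5 in PAP TRAP (log2 change -0.67 ± 0.23, edgeR adjusted p = 0.105).

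Grin2c had 3.65, 9.85 and 3.86 normalized CPM in synaptoneurosome input, from 12, 33 and 20 counts, and 8.34, 18.6 and 9.17 in PAP TRAP, from 95, 225 and 118 counts. The groups overlapped, and the change was 1.07 ± 0.56 on the log2 scale (edgeR adjusted p = 0.304). The high values of both groups are from replicate 2. PAP TRAP replicate 2 also had the largest share of astrocyte markers, 9.47% of nuclear counts, most of it from Slc1a2. It had the lowest levels of Gria1, Gria2, Gria3, Grin1, Grin2a and Grin2b among the PAP TRAP libraries. The part of this library's makeup in these values was not tested. Gria1 changed by -0.72 ± 0.27 (edgeR adjusted p = 0.143), Gria4 by -1.11 ± 0.59 (edgeR adjusted p = 0.305), Grin2a by -0.25 ± 0.45, Grin2d by -0.04 ± 0.59 and Grin3a by -0.63 ± 0.43 on the log2 scale. Their 95% intervals each span more than 1 log2 unit. Beside the subunits, 6 of 8 dendritic messages rose, with a median log2 change of 1.67, and 4 of 12 astrocyte markers rose and none fell, with a median of 0.76, while 3 of 16 neuron markers fell and none rose, with a median of -0.78. Their part in the subunits' values was not tested.

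PAP TRAP and cortex TRAP were then set against each other, which asks which subunit messages differed between tagged ribosomes of the process fraction and of the whole tissue. All 10 subunits had ranges that did not overlap between these groups, 9 with the higher levels in PAP TRAP and Grin2c with the lower. Of all 13364 genes tested, 22.2% were higher without overlap and 26.1% lower without overlap in PAP TRAP. Of all genes, 33.9% were called (19.3% higher, 14.6% lower), and 8 subunits rose: all 4 AMPA subunits, Grin1, Grin2a, Grin2b and Grin2d. The median log2 change of the subunits was 3.33, against -0.28 for all genes. The comparison shares its PAP TRAP libraries with the second comparison and its cortex TRAP libraries with the first.

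Grin2b rose by 4.30 ± 0.26 on the log2 scale (19.6-fold, edgeR adjusted p = 5.87e-10), and Grin1 by 4.26 ± 0.40 (19.1-fold, edgeR adjusted p = 9.43e-08). Grin2a rose by 3.80 ± 0.51 and Gria3 by 3.69 ± 0.35. Gria2, Gria4 and Gria1 rose by 3.45 ± 0.28, 3.21 ± 0.64 and 3.07 ± 0.30, and Gria4 rose by 5.16 without cortex TRAP replicate 2. Grin2d, with 9.64 to 14.7 normalized CPM in PAP TRAP against 0.96 to 3.23, rose by 2.61 ± 0.63 (edgeR adjusted p = 0.00339), but by 1.54 with GC-corrected offsets (edgeR adjusted p = 0.0546).

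Offsets corrected for exon length moved the long genes most: Grin2b, with 24842 exonic bases, rose by 2.36 and Gria2 by 2.05, and both remained called. Grin3a, the GluN3A gene, changed by 1.07 ± 0.43 (edgeR adjusted p = 0.0639). Its estimate fell to -0.02 with the length correction, and it passed the threshold in 7 of 15 alternatives. Grin2c was lower in all 3 PAP TRAP libraries than in any cortex TRAP library, with a log2 change of -1.02 ± 0.54 (edgeR adjusted p = 0.153). With GC-corrected offsets the change was -1.79 (edgeR adjusted p = 0.0206). Of the astrocyte markers, 10 of 12 fell, with a median log2 change of -1.43, and 13 of 16 neuron markers and 7 of 8 dendritic messages rose, as did 5 of 6 oligodendrocyte and 4 of 6 microglia markers. Their part in the subunits' rise was not tested.

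The synaptoneurosome input was compared with the cortex input to ask which subunit messages the layer itself carried at a higher level. All 10 subunits had higher levels in the layer with no overlap of ranges, as did 16.4% of all 13364 genes tested. By the edgeR test 7 subunits were called, Gria1, Gria2, Gria3, Grin1, Grin2b, Grin2c and Grin2d. Of all genes, 9.32% were called (7.26% higher, 2.07% lower). Gria3 rose by 1.77 ± 0.32 on the log2 scale (edgeR adjusted p = 0.00141), Gria2 by 1.30 ± 0.26 (edgeR adjusted p = 0.00263), Gria1 by 1.17 ± 0.28 (edgeR adjusted p = 0.0105) and Grin2b by 1.11 ± 0.23 (edgeR adjusted p = 0.00436). Grin2c rose by 3.23 ± 0.63 (edgeR adjusted p = 0.00254).

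The calls of Grin1 (1.14 ± 0.35, edgeR adjusted p = 0.0461) and Grin2d (2.04 ± 0.62, edgeR adjusted p = 0.0423) stood near the threshold. That of Grin1 was lost when any 1 of the 6 libraries of both groups was left out. It was also lost with offsets corrected for GC content or length (edgeR adjusted p = 0.0534 and 0.0554). The call of Grin2d was lost with GC-corrected offsets and without the low count filter (edgeR adjusted p = 0.0513 and 0.0632). Each of the 2 genes passed in 7 of 15 alternatives. Between 4 and 7 subunits were called with 1 library left out, with 4 without cortex input replicate 2 or replicate 3. Without those libraries the adjusted p of Gria1 was 0.0606 and 0.0669 (edgeR), and Grin2d no longer passed without any 1 of the 3 cortex inputs or without synaptoneurosome input replicate 1 (edgeR adjusted p = 0.113 to 0.199). Grin2a (1.43 ± 0.46), Grin3a (1.34 ± 0.44) and Gria4 (1.15 ± 0.59) were not called (edgeR adjusted p = 0.0582, 0.0605 and 0.237), and passed the threshold in 5, 9 and 2 of 15 alternatives. Of the 12 astrocyte markers 10 rose, 4 of 6 microglia markers rose, and 2 of 16 neuron markers rose and 2 fell. Of the 8 dendritic messages 3 rose and none fell, and of the 6 oligodendrocyte markers 2 rose and none fell. Their part in the subunits' rise was not tested.

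An interaction term, the PAP TRAP change over its input minus the cortex TRAP change over its own, asks whether the purification changed a subunit's level alike in both settings. Of all genes, 20.2% were called (12.9% higher, 7.32% lower), and 7 subunits were. Grin2b had a difference of 3.19 ± 0.33 on the log2 scale (edgeR adjusted p = 2.07e-06), being depleted in cortex TRAP far more than in PAP TRAP. Grin1 had a difference of 3.12 ± 0.50 (edgeR adjusted p = 0.000176), Grin2a 2.36 ± 0.66, Gria2 2.14 ± 0.36, Gria3 1.92 ± 0.45 and Gria1 1.90 ± 0.39. Grin2c alone was called in the other direction, at -4.25 ± 0.83 (edgeR adjusted p = 0.00106).

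Gria4 (2.06 ± 0.84, edgeR adjusted p = 0.0936), Grin2d (0.56 ± 0.84) and Grin3a (-0.27 ± 0.61) were not called, and Gria4 reached 4.03 without cortex TRAP replicate 2 (edgeR adjusted p = 4.41e-05). With length-corrected offsets, 4 subunits were called: the differences of Gria2 (0.89, edgeR adjusted p = 0.0886), Gria3 (1.13, edgeR adjusted p = 0.0922) and Grin2a (0.98, edgeR adjusted p = 0.336) no longer passed, and that of Grin2b was 1.46.

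The makeup of each family was described by dividing counts by exon length and taking each subunit's share, which does not depend on the scaling of the library. Among the 4 GluN2 subunits, Grin2b held 97.4% ± 0.153 (SD, n = 3) in cortex input and 44.8% ± 3.19 in cortex TRAP, where Grin2c held 50.1% ± 1.21. In cortex input Grin2c held 0.186% ± 0.141. The Grin2c share was 0.880% ± 0.690 in the synaptoneurosome layer before purification, against 2.86% ± 2.00 in PAP TRAP, whose libraries had 1.49%, 5.16% and 1.93%. Grin2b held 95.5% ± 1.71 and 92.4% ± 1.84 in these 2 groups. In cortex TRAP the Grin2c share ranged from 49.0% to 51.4%, and no library of another group exceeded 5.16%.

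Grin1 held 13.7% ± 2.30 of the NMDA subunits in synaptoneurosome input but 34.8% ± 6.12 in PAP TRAP, the latter from shares of 30.8%, 31.9% and 41.9%. The input libraries had 11.7% to 16.2%, so the groups did not overlap. In cortex input Grin1 held 13.8% ± 3.99 and in cortex TRAP 19.3% ± 7.35. The level of this share depends on the length used: undivided by length it was 6.09% in synaptoneurosome input and 18.3% in PAP TRAP, and per length of the longest coding transcript 25.3% and 53.1%. Among AMPA subunits, Gria3 was first in synaptoneurosome input at 45.9% ± 2.63 and in PAP TRAP at 40.3% ± 1.77, and Gria2 held 25.7% to 29.9% on average in all 4 groups. In cortex TRAP the shares scattered widely, with Gria4 at 1.88%, 21.3% and 4.49%. With 3 libraries a group, the exact two-sided permutation test can go no lower than p = 0.1, and after Benjamini-Hochberg adjustment over the 44 comparisons made the lowest value was 0.275, so no difference in share passes. Dividing by no length moved the share of Grin2c among GluN2 subunits in cortex TRAP to 17.7%, since Grin2b has 24842 exonic bases and Grin2c 5037.

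**Figure D3:**
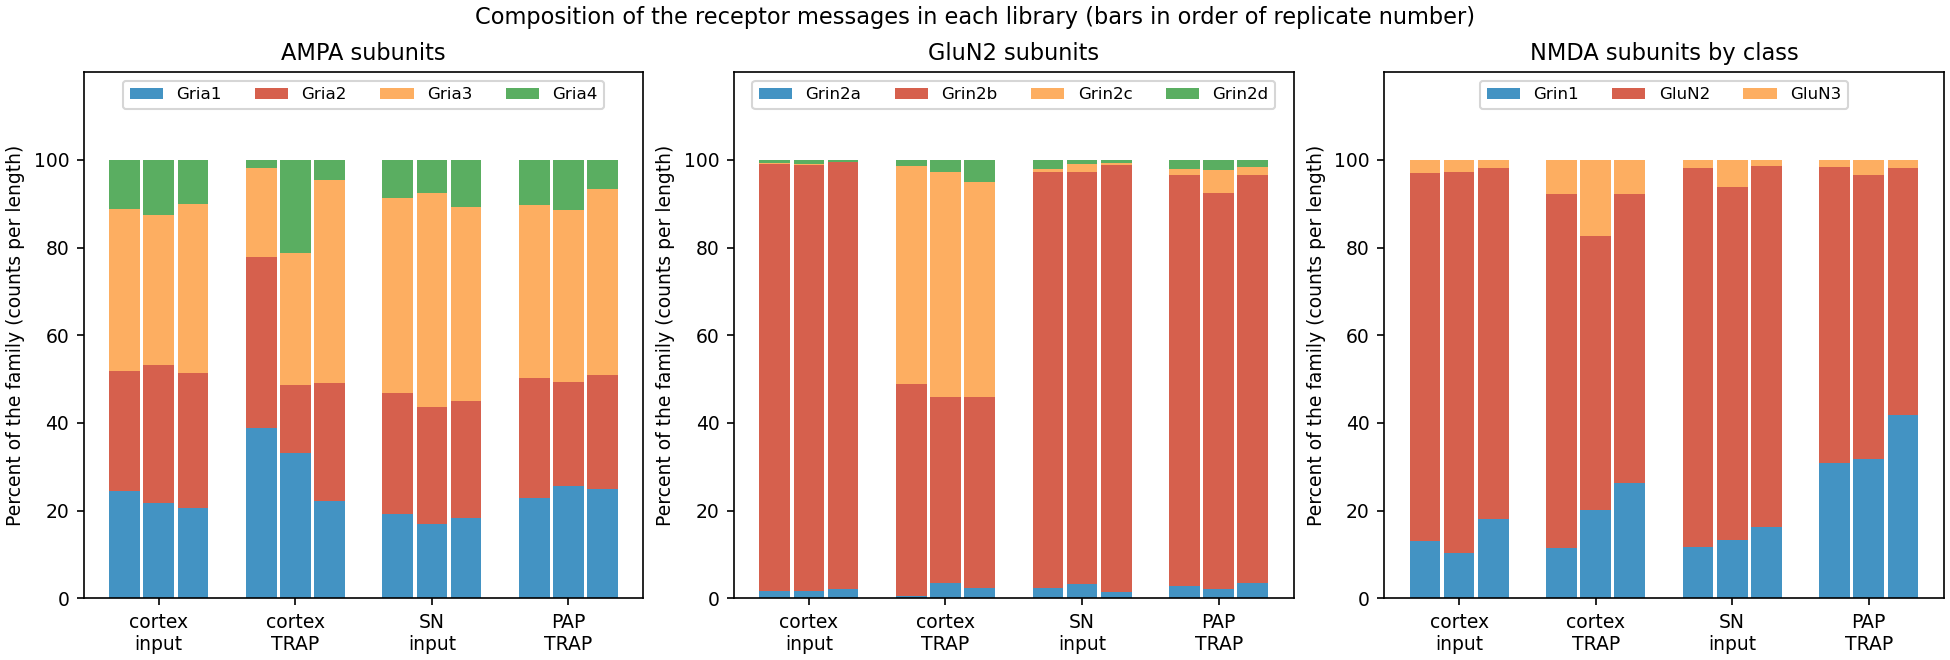
Share of each subunit within the AMPA family, the GluN2 family and the NMDA family, from counts per exon length, stacked to 100% in each library, in order of replicate number (GluN3 is Grin3a alone). Grin2c takes 49.0% to 51.4% of the GluN2 family in cortex TRAP and 1.49% to 5.16% in PAP TRAP, and Grin1 takes 30.8% to 41.9% of the NMDA family in PAP TRAP.

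Proteins that work with the receptors were taken from fixed lists. For comparison with the counts below, 19.5% of all genes fell in cortex TRAP against its input, and 19.3% rose in PAP TRAP against cortex TRAP. In PAP TRAP against synaptoneurosome input 4.53% of all genes were called, and in synaptoneurosome input against cortex input 9.32%. Of the 16 genes for AMPA receptor auxiliary and assembly proteins, 14 were tested, since Cacng7 and Cacng8 had at most 1 count in any library. Why these counts were so low was not tested, and they do not show that the genes were absent from the tissue. Against cortex input, 8 of the 14 fell in cortex TRAP and none rose, with a median log2 change of -1.33. Against cortex TRAP, 9 rose in PAP TRAP and none fell. In PAP TRAP against synaptoneurosome input 1 of the 14 was called: Gsg1l, which encodes an auxiliary subunit that slows recovery from desensitization, fell by 1.87 ± 0.37 on the log2 scale (edgeR adjusted p = 0.00819), from 82.6 ± 10.9 to 22.7 ± 8.13 normalized CPM (SD, n = 3). Cacng2, the gene for stargazin, which carries AMPA receptors to the synapse, changed by 0.16 ± 0.38 there, and fell by 2.24 ± 0.40 in cortex TRAP against its input (edgeR adjusted p = 0.000188).

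Of 14 anchoring and trafficking partners, 9 fell and none rose in cortex TRAP against its input, and 10 rose and none fell in PAP TRAP against cortex TRAP. In PAP TRAP against synaptoneurosome input 2 rose, both binding receptor complexes at the postsynaptic membrane. Dlg2, a PSD-95 relative, rose by 1.17 ± 0.25 (edgeR adjusted p = 0.0125), from 365 ± 42.3 to 820 ± 151 normalized CPM, and Epb41l1, which links GluA1 to the cytoskeleton, rose by 1.29 ± 0.28 (edgeR adjusted p = 0.0128), from 285 ± 49.2 to 699 ± 158. Without synaptoneurosome input replicates 1 or 2 the adjusted p of Dlg2 was 0.0518 and 0.0645, and without replicate 3 that of Epb41l1 was 0.0646 (edgeR). Epb41l1 was also lost with GC-corrected offsets (edgeR adjusted p = 0.0740). In synaptoneurosome input against cortex input 2 partners rose and 3 fell, among them Nptxr, a receptor of the pentraxin family that clusters AMPA receptors, which rose by 1.74 ± 0.31 (edgeR adjusted p = 0.00129), and Akap5, the anchor of kinases and phosphatases at the receptor, which fell by 1.39 ± 0.36 (edgeR adjusted p = 0.0193). For Akap5 the adjusted p was 0.0743 or 0.108 when synaptoneurosome input replicate 1 or 2 was dropped, and 0.0698 and 0.0708 without cortex input replicates 2 and 3 (edgeR).

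Of the other ionotropic glutamate receptor genes and their Neto proteins, 9 of 10 were tested, and Grin3b had at most 2 counts in any library. In cortex TRAP against its input 6 fell and 1 rose, and in PAP TRAP against cortex TRAP 8 rose and none fell. In PAP TRAP against synaptoneurosome input 2 of the 9 fell and 1 rose. Neto2, an auxiliary subunit of kainate receptors, fell by 1.27 ± 0.25 (edgeR adjusted p = 0.00842). Its relative Neto1 fell by 0.91 ± 0.25 (edgeR adjusted p = 0.0399), and Grik5, a kainate receptor subunit, rose by 1.35 ± 0.32 (edgeR adjusted p = 0.0210). With GC-corrected offsets none of the 3 passed (Neto2 adjusted p = 0.0887, Neto1 0.220, Grik5 0.202, edgeR). Neto1 also missed the threshold without any 1 synaptoneurosome input (edgeR adjusted p = 0.0892 to 0.117), cortex input (0.0625 to 0.0729) or PAP TRAP replicate 2 or 3 (0.139 and 0.0977), and Grik5 without any 1 synaptoneurosome input (0.0637 to 0.0812) or PAP TRAP replicate 3 (0.104). All 3 RNA editing enzyme genes fell in cortex TRAP against its input, and 2 rose in PAP TRAP against cortex TRAP. Adarb1, whose product edits the Gria2 codon shown above, fell by 1.78 ± 0.33 in cortex TRAP against its input and changed by 1.13 ± 0.33 in PAP TRAP against synaptoneurosome input (edgeR adjusted p = 0.0562), short of the threshold.

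**Figure D4:**
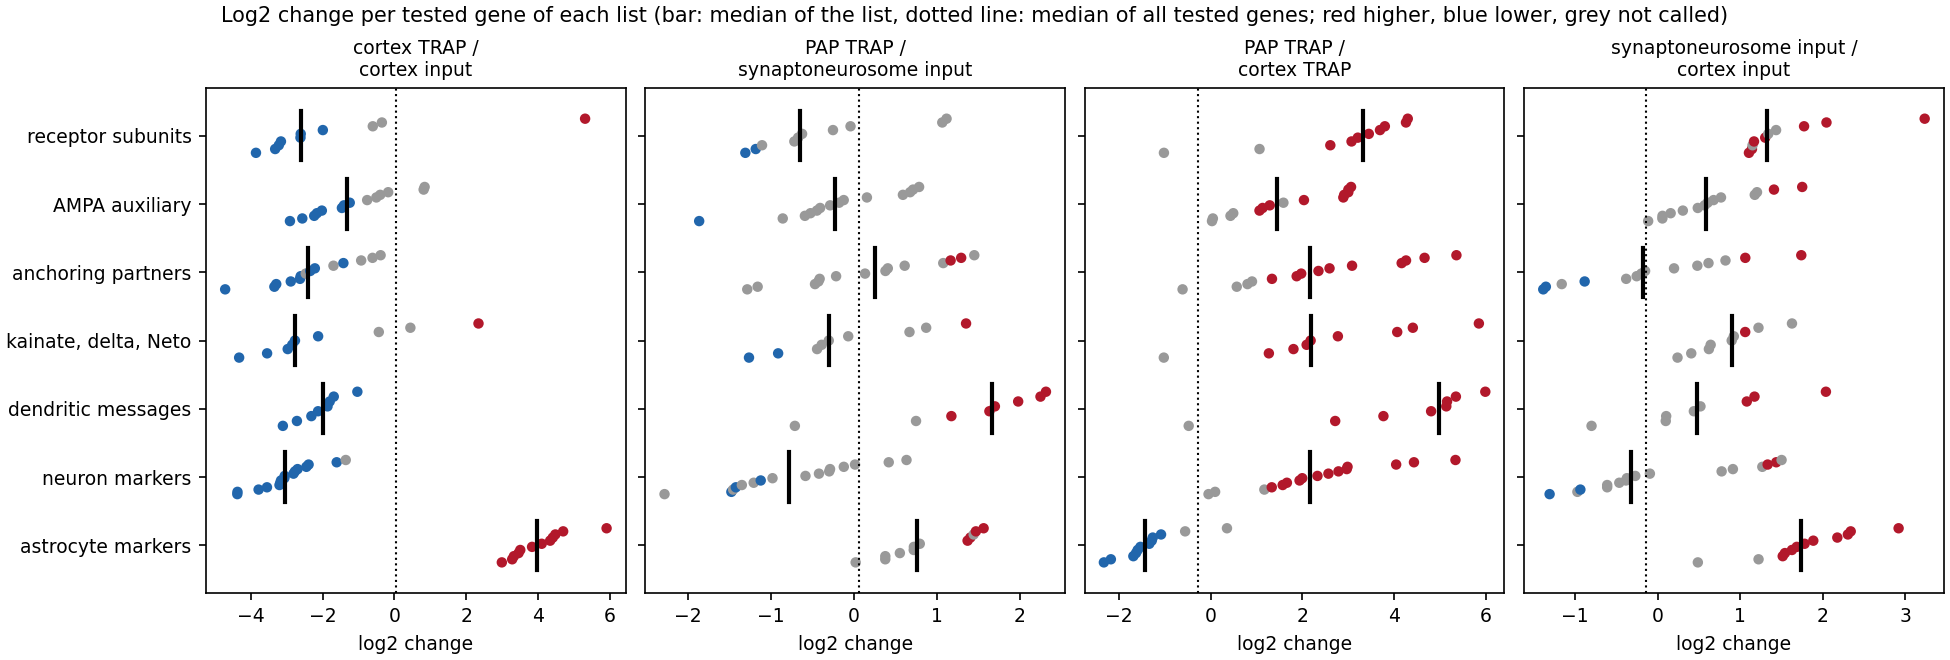
Log2 changes of the genes of the partner lists and cell type markers beside those of the receptor subunits in the 4 group comparisons, with the median of each list. Points are tested genes, red if called higher, blue if called lower and grey if not called, and the dotted line is the median of all tested genes. In cortex TRAP against cortex input the subunits have a median of -2.62 and the astrocyte markers a median of 3.97.

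For each subunit, the genes whose pattern over the 12 libraries was most like it were ranked by Pearson's r of log2 normalized CPM among 6702 genes, or 6703 for Grin2d (n = 12, shared libraries, no test). Grin2c was most like Luzp2 (r = 0.982), 2900052N01Rik (0.980) and Aldh1a1 (0.979). Grin1 was most like Adgrb2 (0.982), Pld3 (0.980) and Shank1 (0.977), and Grin2a was most like Scn2a (0.989). Gria2 was most like Spock1 (0.996) and Grin2b most like Slc4a10 (0.996), and both had Serpini1 among the 3 nearest genes (r = 0.994 and 0.996). Gria3 was most like Pcdha11 (0.997), followed by Syt1 (0.994). The nearest gene was Sema5a for Gria1 (0.993), Brinp1 for Gria4 (0.988) and Trak2 for Grin2d (0.978). Grin3a had no gene nearer than Lpar1 (0.919). The points fall into 4 groups of 3 libraries that all genes share.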

How the data were processed

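The deposited files hold whole-number counts of reads per gene, not normalized by the authors, judged from the values. The submitters' processing notes name HTSeq, STAR, Bowtie2 and Trimmomatic 0.32, with no role for each. The build, the annotation and the strandedness of counting: not given in the sources used here. Per the labels' protocols, cDNA from 2 ng of RNA was amplified by SPIA, so counts are not independent molecules. Rows naming no gene held 20.3% to 55.5% of counts and were left out.

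Of 41388 identifiers, 13364 passed edgeR's filterByExpr (minimum count 10, minimum total 15). All 12 libraries, with 1 mean per group and TMM scaling, were fitted by the edgeR quasi-likelihood test (edgeR 4.0.16, R 4.3.3), adjusted by Benjamini-Hochberg over all genes and called at 0.05. Changes are log2 values ± SE. The scripts were tested on simulated data. GENCODE M21, matched by identifier, gave symbols, GC content and exon lengths.

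All 10 members were named. From each partner list, up to 2 genes that rose and 2 that fell per comparison by smallest p could be named, and the 3 genes most like each member by correlation. Cacng2, and Adarb1 where it was not called, were named outside this rule after their values were seen, as were genes at or near 0 counts. Some items are not reported here. Members and lists were chosen with earlier results of these data known. Alternatives were RLE scaling, no filter, DESeq2 1.42.0, compared groups alone, a replicate block, no mitochondrial genes, offsets corrected for GC content or length (loess span 0.3), the block with the GC correction, and each library left out. Shares were also computed from raw counts and, added after seeing the data, shares and the order of levels from the longest coding transcript.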

Additional observations from a re-analysis of the deposited data

Results flagged for a closer look

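The change over input differed between the whole-tissue purification and the synaptoneurosome purification for 7 subunits, by the test of the difference itself (edgeR). Of all 13364 genes tested, 20.2% were called by that test. The log2 difference was 1.904 for Gria1, 2.145 for Gria2, 1.918 for Gria3, 3.116 for Grin1, 2.363 for Grin2a and 3.191 for Grin2b. For these 6 the change was more negative in cortex TRAP against its input than in PAP TRAP against its own. For Grin2c it was -4.253, with a rise over input of 5.32 in cortex TRAP and a change of 1.07 in PAP TRAP. With length-corrected offsets 4 subunits were called, and Gria2, Gria3 and Grin2a no longer passed (edgeR). The astrocyte markers differed in the same direction as Grin2c in 12 of 12 cases and 11 of 16 neuron markers in the direction of the other 6 subunits. Their part in these differences was not tested. No group had 4 or more libraries, so none was searched for a single library far from the others.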

How the results depend on the processing

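Of 800 recomputed subunit changes, 719 kept their direction and side of the threshold, 32 lost the call, 35 gained one and 14 changed direction. All 3 synaptoneurosome inputs had fewer nuclear counts, 1423296 to 2476076, than any other library, and the part of depth in the calls was not tested. In PAP TRAP against synaptoneurosome input, the subunits called were 2, and 4 with DESeq2, 4 with the compared groups alone, 0 with GC correction (with or without the replicate block; 334 genes called with GC correction alone and 2494 at an unadjusted p under 0.05) and 0 to 2 with 1 library left out. All genes called there were 605, with 1188 by DESeq2 and 292 to 521 with 1 library left out. In synaptoneurosome input against cortex input 4 to 7 subunits were called with 1 library left out. All genes called there were 1246, with 1963 by DESeq2, 2251 with the compared groups alone and 608 to 1025 with 1 library left out. The difference between enrichments gave 4 subunits with length correction. The cause of these differences was not tested.

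Undivided by length, Gria2 held 45.1%, 42.0%, 40.4% and 39.8% of AMPA subunits in the 2 cortex groups (input, TRAP) and the 2 synaptoneurosome groups (input, TRAP), and Grin2c 0.0382%, 17.7%, 0.183% and 0.612% of GluN2 subunits. Grin1 held 6.06%, 14.4%, 6.09% and 18.3% of NMDA subunits. With the longest coding transcript, Gria2 held 25.6% of AMPA subunits in synaptoneurosome input and Grin1 25.5%, 32.1%, 25.3% and 53.1% of NMDA subunits.

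Changes of direction, all in uncalled estimates, were as follows. Grin3a was 0.53 in cortex TRAP against input and -0.0218 in PAP TRAP against cortex TRAP with length correction, and ranged from -0.89 to 0.13 in PAP TRAP against its input with 1 library left out, positive without synaptoneurosome input replicate 2. Its difference between enrichments was 0.0279 with the replicate block, and ranged from -0.53 to 0.49 with 1 library left out, positive at 0.06, 0.38 and 0.49 without cortex input replicate 3, cortex TRAP replicate 2 and synaptoneurosome input replicate 2. Grin2d in PAP TRAP against its input was 0.0107 unfiltered, 0.0859 without mitochondrial genes, and ranged from -0.26 to 0.50 with 1 library left out, positive without synaptoneurosome input replicate 1 (0.50) or PAP TRAP replicate 3 (0.0978). Its difference between enrichments was -0.42 with GC correction and -0.46 with the block and GC correction. Grin2a in PAP TRAP against its input ranged from -0.45 to 0.0283 with 1 library left out, positive without PAP TRAP replicate 2.

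Libraries of the same number deviated together weakly (r from -0.03 to 0.12, median 0.06, 3 of 18 pairs over 0.1). For libraries of other numbers r ranged from -0.14 to 0.07 (median -0.03, 0 of 36 pairs over 0.1). Same-number libraries were thus slightly more alike, but the numbers were not taken as pairs in the main fit. With the replicate block, Grin1 passed in PAP TRAP against its input (log2 change 1.13, edgeR adjusted p = 0.0163), Grin3a passed in PAP TRAP against cortex TRAP (1.18, edgeR adjusted p = 0.0149) and in synaptoneurosome input against cortex input (edgeR adjusted p = 0.0477), and Grin2d no longer passed in the latter (edgeR adjusted p = 0.0598).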
